A study of Callithrix jacchus with 3 samples.

Results

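Notch receptors, their ligands and the DNA-binding protein RBPJ were followed in RNA-sequencing counts of common marmoset (Callithrix jacchus) cells. The members were the rows whose Ensembl gene ID maps to 1 of 10 listed symbols, and 8 of the 10 mapped, among 30811 genes in each file. They were the receptors NOTCH1, NOTCH2 and NOTCH3, the ligands DLL1, DLL3, JAG1 and JAG2, and RBPJ. The target genes HES1 and HEY1 had no row with a matching ID in the name table used and were dropped, so no value for either is given. The 3 libraries form 1 group of EPSC-like cells (EPSC, extended pluripotent stem cell) and are called replicates 1, 2 and 3. Per the series title they stem from attempts to derive such cells from marmoset embryonic stem cells. The sources used here give no medium, passage, age, sex or genotype. The titles all carry the tag No40, whose meaning is not stated, and differ only in the replicate number, so the libraries may share 1 origin, and with no parental or control cells the data compare no conditions. Whether they are separate cultures is not stated, so a p-value here measures no more than how these libraries spread, and that spread may be technical.

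Notch signalling passes between touching cells. A ligand on one cell binds a receptor on its neighbour, the receptor is cleaved by ADAM proteases and then by gamma-secretase, and the freed intracellular part enters the nucleus. There it joins RBPJ and a Mastermind-like coactivator, which turns RBPJ from a repressor into an activator of genes such as those of the HES and HEY families. In mammalian pluripotent cells the pathway is known mainly for its part in the exit to neural and other fates.

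Total counts were 52327369, 55224475 and 40593244 in replicates 1, 2 and 3. A limit of 3 counts corresponds to 0.0573, 0.0546 and 0.0736 CPM, that is, counts per 1000000 counts after scaling. All 9 matched genes of a 12-gene core pluripotency list were called above 1 CPM, as were 78.3% of tested genes with a symbol. With no parental or control cells, these levels cannot tell EPSC-like cells from other pluripotent cells. The summed level of the 9 was 4333 CPM in replicate 3, against 4699 and 4862 CPM in replicates 1 and 2. Within that sum, 3 of the 9 were over 1.5-fold lower in replicate 3 than in each of the others. SALL4 stood at 58.5 CPM against 135 and 134 CPM, and LIN28A at 350 CPM against 674 and 725 CPM. LIN28B stood at 470 CPM against 742 and 774 CPM, while POU5F1 was higher, at 1185 CPM against 974 and 972 CPM. Replicate 3 stood apart over the whole table. Of the 13719 genes that averaged 1 CPM or more, 14.6% were over 1.5-fold lower and 5.58% over 1.5-fold higher in replicate 3 than in replicate 1. Between replicates 2 and 1 these shares were 0.743% and 0.488%.

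All 8 measured members were expressed. Each was called above 1 CPM by the edgeR quasi-likelihood F statistic with Benjamini-Hochberg adjustment over 23432 genes, with adjusted p from 2.22e-12 for NOTCH3 to 4.51e-08 for DLL1. That call is common: 56.0% of all genes tested and 78.3% of those with a symbol were above 1 CPM. The members were also chosen with earlier results of these data known, so their count is no finding about Notch genes at large. The 8 members were also all above 5 CPM, as were 44.5% of all genes tested and 64.9% of those with a symbol. The median level of the members was 5.01 on the log2 CPM scale, against 4.13 over all genes with a symbol, as every member has, and 1.70 over all genes tested. CPM grows with transcript length, and no lengths of the counted gene models were at hand, so no order of the genes by level is drawn.

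Of the receptors, NOTCH2 differed most between libraries. NOTCH2, a widely expressed receptor, had 564 counts in replicate 3, against 2064 and 2282 in replicates 1 and 2, or 13.8 CPM against 39.5 and 41.5 CPM. Its mean was 31.6 ± 15.4 CPM (SD, n = 3). The level in replicate 3 was 2.85-fold lower than in replicate 1 (ratio 0.351, 95% exact interval 0.319 to 0.385) and stood at a ratio of 0.333 (0.303 to 0.366) to replicate 2. These intervals cover the counting error of reads only, and each compares 1 library with 1 other. The submitters' notes name no step that merges read copies of 1 molecule, so the intervals may be too narrow. In such bulk RNA, fewer cells of a type and less RNA per cell cannot be told apart.

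NOTCH1, the receptor best known from T cells and early development, had 1699 counts in replicate 3, against 2737 and 2897 in replicates 1 and 2, or 41.7 CPM against 52.3 and 52.7 CPM. Its mean was 48.9 ± 6.26 CPM (SD, n = 3). NOTCH3, the receptor of vascular smooth muscle and pericytes, had 2848 counts in replicate 3, against 4357 and 4768, or 69.8 CPM against 83.3 and 86.7 CPM. Both genes were lowest in replicate 3, but by less than 1.5-fold. For NOTCH1 the drop was 1.26-fold against each of the other libraries, and for NOTCH3 it was 1.19-fold against replicate 1 and 1.24-fold against replicate 2.

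**Figure D1:**
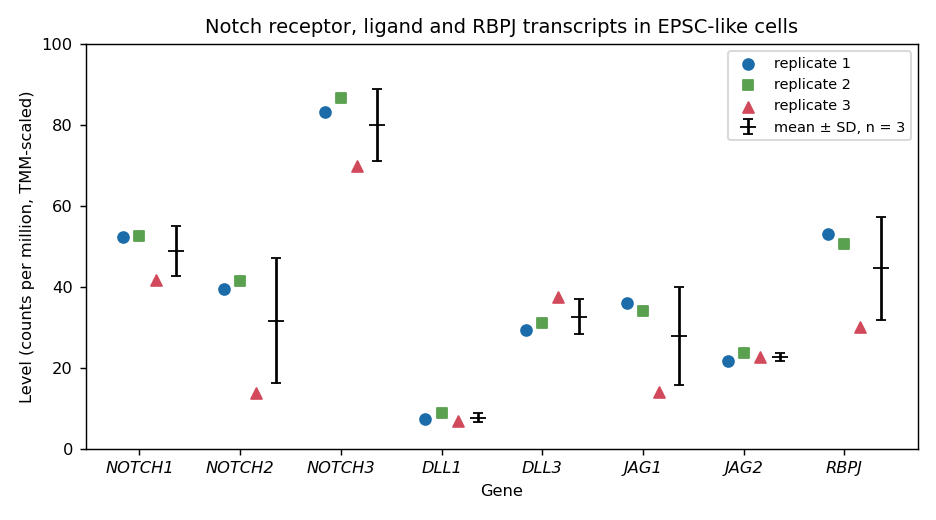
Level of each Notch member in CPM scaled by TMM factors (y axis, linear), with 1 symbol per library and a black bar for the mean ± SD of 3 libraries. NOTCH2, JAG1 and RBPJ are far lower in replicate 3, at 13.8, 14.1 and 30.0 CPM, while the 3 values of JAG2 lie between 21.6 and 23.6 CPM.

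The ligands split in the same way. JAG1, a Jagged ligand with roles in heart, bile duct and inner ear development, had 573 counts in replicate 3, against 1878 and 1867 in replicates 1 and 2. That was 14.1 CPM against 35.9 and 34.0 CPM, with a mean of 28.0 ± 12.1 CPM (SD, n = 3). The level in replicate 3 was 2.56-fold lower than in replicate 1 (ratio 0.392, 95% exact interval 0.356 to 0.430) and 2.42-fold lower than in replicate 2 (ratio 0.414, 0.376 to 0.455). Its relative JAG2 did not show that drop. JAG2 had 927 counts in replicate 3, against 1130 and 1298 in replicates 1 and 2, or 22.7 CPM against 21.6 and 23.6 CPM, with a mean of 22.6 ± 1.01 CPM. The ratio for JAG2 was 1.05 over replicate 1 (0.964 to 1.15) and 0.963 over replicate 2 (0.884 to 1.05), and both intervals hold 1.

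Of the 8 members, only DLL3 had its highest level in replicate 3. DLL3 encodes a divergent Delta ligand, known in mammals to act inside the cell and to dampen signalling. It had 1527 counts in replicate 3, against 1532 and 1712 in replicates 1 and 2. Scaled to depth that was 37.4 CPM against 29.3 and 31.1 CPM, with a mean of 32.6 ± 4.28 CPM (SD, n = 3). The excess was 1.28-fold over replicate 1 (1.19 to 1.37) and 1.20-fold over replicate 2 (1.12 to 1.29), short of 1.5-fold.

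DLL1, a Delta ligand that activates Notch on neighbouring cells, had 279 counts in replicate 3, against 379 and 489 in replicates 1 and 2. That was 6.84 CPM against 7.25 and 8.89 CPM, with a mean of 7.66 ± 1.09 CPM (SD, n = 3). It was the member with the fewest counts, and its libraries did not split as those of JAG1 did: replicate 2 was 1.23-fold over replicate 1 (95% exact interval 1.07 to 1.41). In the RefSeq annotation of the assembly calJac240_pri, DLL1 overlaps FAM120B, and with no strand setting given, reads from the overlap cannot be told apart.

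RBPJ had 1225 counts in replicate 3, against 2777 and 2783 in replicates 1 and 2. Its level was 30.0 CPM against 53.1 and 50.6 CPM, with a mean of 44.6 ± 12.6 CPM (SD, n = 3). That was 1.77-fold lower than in replicate 1 (ratio 0.566, 0.529 to 0.606) and 1.69-fold lower than in replicate 2 (ratio 0.594, 0.555 to 0.635). In human, RBPJ has processed pseudogenes. The treatment of reads shared between copies is not given for these counts, so the level of RBPJ is uncertain.

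In all, 3 of 8 members, NOTCH2, JAG1 and RBPJ, were over 1.5-fold lower in replicate 3 than in replicate 1, where the background was 14.6% of genes. The same 3 were over 1.5-fold lower than in replicate 2, where it was 14.9%. No member was over 1.5-fold higher in replicate 3 than in either of the others (background 5.58% and 5.99%), and none passed 1.5-fold between replicates 2 and 1. Past 2-fold, NOTCH2 and JAG1 were lower in replicate 3, with backgrounds of 5.07% against replicate 1 and 5.01% against replicate 2. The comparisons with replicates 1 and 2 share replicate 3, so they do not count as separate evidence. The median log2 ratio of the members was −0.29 for replicate 3 over replicate 1 and −0.36 over replicate 2, against −0.05 in each case over the 13719 genes. Over the 9825 of these with a symbol, as every member has, the medians were −0.096 and −0.097. Of those 9825, 1570 and 1611 were over 1.5-fold lower in replicate 3 than in replicates 1 and 2. Relative to their means, NOTCH2 and JAG1 varied by 48.8% and 43.2% (SD over mean), and 97.7% and 96.3% of the 13719 genes varied less. For RBPJ the figures were 28.4% and 86.7%. NOTCH1, NOTCH3, DLL1 and DLL3 varied by 11.2% to 14.2%, near the gene median of 12.8%, and JAG2 by 4.44%, with 13.6% of genes varying less.

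**Figure D2:**
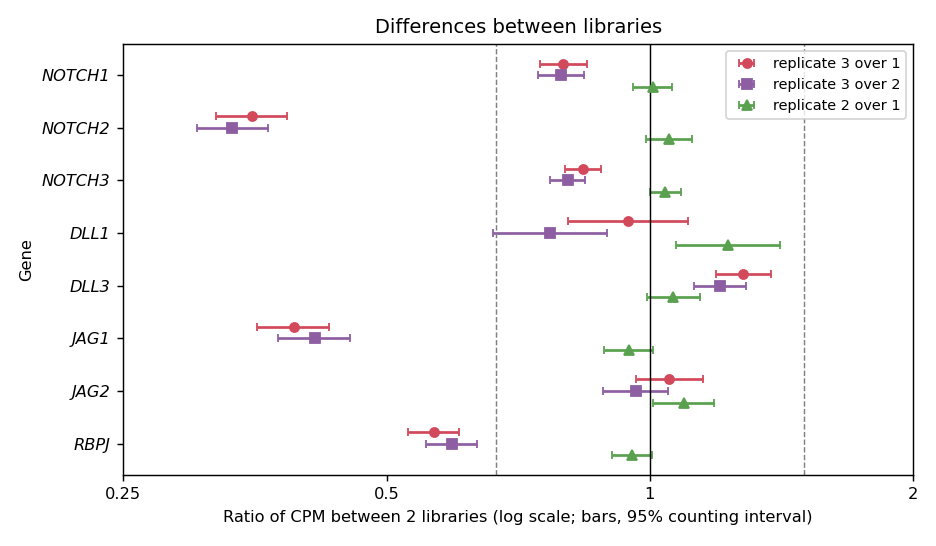
Ratio of CPM between pairs of libraries for each member (x axis, log scale), with 95% exact intervals for counting error as bars, a line at 1 and dashed lines at 1.5-fold. For NOTCH2, JAG1 and RBPJ the ratios of replicate 3 to both other libraries lie left of the lower dashed line, at 0.333 to 0.594, and those of replicate 2 over replicate 1 lie near 1.

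The make-up of each family therefore differed between the libraries. NOTCH2 gave 11.0% of the summed counts of the 3 receptors in replicate 3 (95% exact interval 10.2% to 11.9%), against 22.5% (21.7% to 23.4%) in replicate 1 and 22.9% (22.1% to 23.8%) in replicate 2. NOTCH3 gave 55.7% in replicate 3, against 47.6% and 47.9% in replicates 1 and 2, and NOTCH1 gave 33.2%, against 29.9% and 29.1%. The shares of a family add to a whole, so a lower share of NOTCH2 raises those of the others. In CPM, NOTCH1 and NOTCH3 were both lowest in replicate 3. A share depends on the lengths of the genes, and so does the size of its difference between libraries. The summed level of the receptors was 125 CPM in replicate 3, against 175 and 181 CPM in replicates 1 and 2.

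Among the 4 ligands, JAG1 gave 17.3% of the counts in replicate 3 (16.1% to 18.7%), against 38.2% (36.8% to 39.6%) and 34.8% (33.5% to 36.1%) in replicates 1 and 2. DLL3 gave 46.2% in replicate 3, against 31.1% and 31.9%. JAG2 gave 28.0%, against 23.0% and 24.2%, while the share of DLL1, at 8.44% against 7.70% and 9.11%, lay between those of the other libraries. In CPM, JAG2 was near level, at 22.7 in replicate 3 against 21.6 and 23.6 in replicates 1 and 2. The summed level of the ligands was 81.1 CPM in replicate 3, against 94.0 and 97.6 CPM in replicates 1 and 2.

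**Figure D3:**
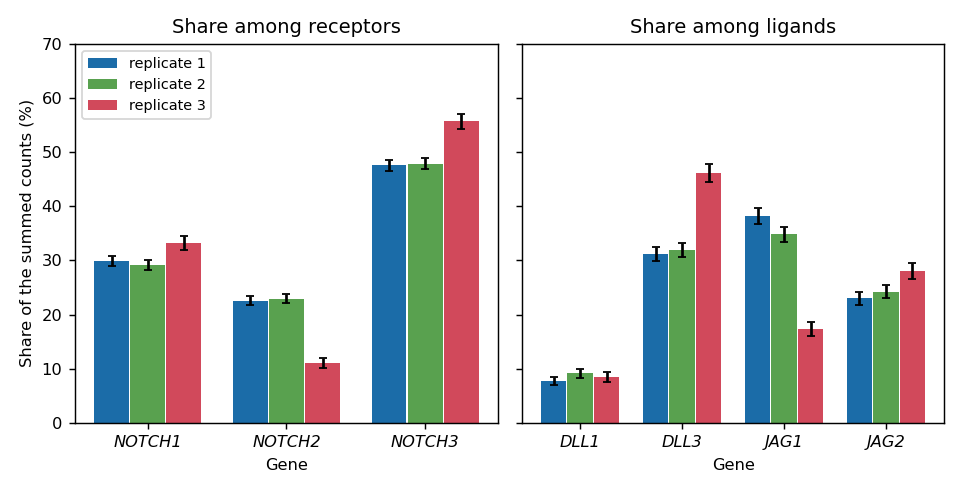
Share of the summed counts of the 3 receptors (left) and of the 4 ligands (right) that each gene gave (y axis, percent), with 1 bar per library and 95% exact intervals. In replicate 3 the share of NOTCH2 is 11.0% and that of JAG1 17.3%, both below their shares in replicates 1 and 2.

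The other genes of the pathway were taken from 7 lists by role. Of 75 genes listed, 59 matched a row. Of these, 54 (91.5%) were above 1 CPM, beside 78.3% of tested genes with a symbol. Another 2 were below it (37.8% of all genes tested were below) and 3 not distinguished from it. The counts by role and of markers below are to be read beside that 78.3%. The matched genes had a median of 5.70 on the log2 CPM scale, against 4.13 over all genes with a symbol. Of the 55 that averaged 1 CPM or more, 12 were over 1.5-fold lower and 1 over 1.5-fold higher in replicate 3 than in replicate 1, beside the background of 14.6% and 5.58%.

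Of the other receptors and ligands, 3 of 4 matched genes were above 1 CPM. DNER, a non-canonical ligand of neurons, stood at 3.19 CPM in replicate 3, against 5.39 and 5.51 CPM in replicates 1 and 2, and DLK2, a Delta-like inhibitor, at 2.16 ± 0.504 CPM (SD, n = 3). NOTCH4, the receptor typical of endothelium, was above the level at 2.03 ± 0.445 CPM. DLL4, the Delta ligand of sprouting vessels, had 3, 6 and 3 counts in replicates 3, 1 and 2. It was below 1 CPM (edgeR adjusted p = 0.00256) and at or near the limit of 3 counts.

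All 7 matched genes of receptor cleavage were above 1 CPM. The sheddase gene ADAM10, whose product makes the first cut after ligand binding, stood at 170 CPM in replicate 3, against 264 and 269 CPM in replicates 1 and 2. ADAM17, a related sheddase gene, stood at 180 CPM against 240 and 246 CPM. PSEN2, which encodes a catalytic subunit of gamma-secretase, stood at 16.7 ± 1.27 CPM (SD, n = 3). ADAM10 was over 1.5-fold lower in replicate 3 than in each of the others, by 1.55-fold and 1.58-fold.

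Receptor glycosylation, which tunes the choice of ligand, was covered by 6 matched genes, of which 5 were above 1 CPM. POFUT1, which adds O-fucose to the receptor, stood at 80.1 ± 8.01 CPM (SD, n = 3). RFNG, a Fringe enzyme that extends that fucose, stood at 37.3 ± 2.21 CPM. The xylosyltransferase gene GXYLT2 was not distinguished from 1 CPM at 0.626 ± 0.296 CPM.

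All 7 matched coactivator genes and all 14 corepressor genes were above 1 CPM. SNW1, a splicing protein that also binds the Notch complex, stood at 239 ± 13.1 CPM (SD, n = 3). The acetyltransferase gene EP300 stood at 121 CPM in replicate 3, against 207 and 217 CPM in replicates 1 and 2. MAML2, a Mastermind-like coactivator gene, stood at 1.89 CPM in replicate 3, against 3.14 and 2.86 CPM. Of the corepressors, the histone deacetylase gene HDAC2 stood at 544 ± 39.9 CPM, CTBP2 at 310 ± 3.78 CPM and TLE2, of the Groucho family, at 19.1 ± 1.70 CPM.

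All 16 matched genes of ubiquitin ligases and endocytosis were above 1 CPM. The endocytic adaptor gene EPN1 stood at 174 ± 6.67 CPM (SD, n = 3), the Deltex gene DTX2 at 99.2 ± 21.04 CPM and NEURL1B, a Neuralized gene, at 1.84 ± 0.399 CPM. MIB1, whose product ubiquitinates ligands so that they can pull on the receptor, was singled out after its values were seen. It had 764 counts in replicate 3, against 2424 and 2364 in replicates 1 and 2, or 18.7 CPM against 46.3 and 43.0 CPM. The drop was 2.47-fold and 2.29-fold, of the size of those of NOTCH2 and JAG1.

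**Figure D4:**
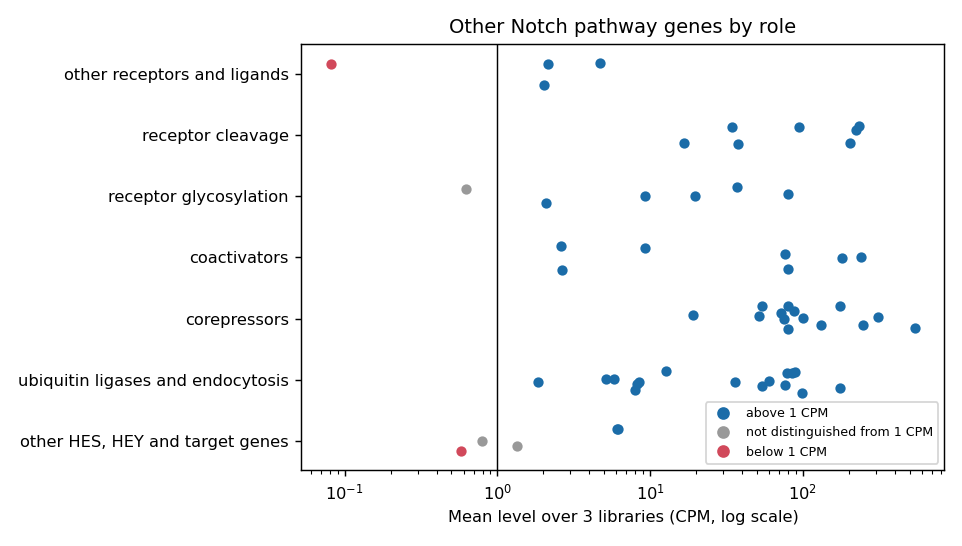
Mean level over 3 libraries in CPM (x axis, log scale) of each matched pathway gene other than the members, by role (y axis; vertical scatter within a role has no meaning), coloured by the call against 1 CPM. The cleavage, coactivator, corepressor and ubiquitin ligase genes all lie right of the 1 CPM line, while 3 of the 5 matched HES genes lie close to it.

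Matched genes of the list of other HES, HEY and target genes were few. Of 13 genes listed only 5 matched, all of the HES family, and 2 of the 5 were above 1 CPM. These were HES6, whose product counters HES1, at 4.86 CPM in replicate 3, against 6.75 and 7.02 CPM in replicates 1 and 2, and HES3 at 6.03 ± 0.348 CPM (SD, n = 3). HES5, a Notch target of neural progenitors, was below 1 CPM with 25, 25 and 35 counts in replicates 3, 1 and 2 (0.576 ± 0.0856 CPM, edgeR adjusted p = 0.0201). That call was lost without replicate 1 and without replicate 2 (edgeR adjusted p = 0.151 and 0.0782). HES2 and HES7 were not distinguished from 1 CPM, at 0.797 ± 0.287 and 1.34 ± 0.266 CPM. None of the 3 HES genes that averaged 1 CPM or more passed 1.5-fold between replicate 3 and the others.

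Summed markers of some other cell types were also lower in replicate 3. The summed level of 6 matched fibroblast markers, all above 1 CPM, was 478 CPM in replicate 3, against 682 and 638 CPM in replicates 1 and 2. Most of that sum was COL1A1, at 404 CPM against 546 and 516 CPM, while DCN stood at 0.981 CPM against 9.25 and 9.71 CPM. Of 8 endothelial markers 4 were above 1 CPM, and their sum was 72.5 CPM against 124 and 129 CPM. Most of that sum was PECAM1, at 65.7 CPM against 116 and 121 CPM, while CDH5 and ERG, which define endothelium more strictly, had at most 5 counts in a library. The sum of 6 trophoblast markers, with CYP19A1 at 0 counts and 3 above the level, was 13.0 CPM against 29.7 and 30.7 CPM. Of its 3 genes that averaged 1 CPM or more, 2 were over 1.5-fold lower in replicate 3. TFAP2A stood at 2.45 CPM against 12.3 and 12.1 CPM, and GATA2 at 0.687 CPM against 9.12 and 9.77 CPM. KRT7 was higher, at 9.86 CPM against 7.80 and 8.24 CPM. The sum of 7 endoderm markers, with AFP at 0 counts and 4 above, was 11.7 CPM against 20.7 and 21.7 CPM. Most of that difference was GATA6, at 0.490 CPM against 7.32 and 8.06 CPM, while GATA4 stood at 3.88 CPM against 4.13 and 4.62 CPM.

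The sums of the neural and presomitic mesoderm markers were not lower in replicate 3. The sum of 6 neural markers, of which 3 were above 1 CPM, was 26.1 CPM in replicate 3, against 22.5 and 22.6 CPM in replicates 1 and 2. The sum of 5 presomitic mesoderm markers, with MSGN1 at 0 counts and 2 above, was 9.56 CPM against 8.93 and 7.07 CPM. Most of that sum was TBXT, at 7.68 CPM against 6.19 and 4.60 CPM, while TBX6 was lowest in replicate 3, at 1.84 CPM against 2.58 and 2.24 CPM, and MESP1 had 2 counts against 6 and 13. The part of any of these cell types in the levels of NOTCH2, JAG1 and RBPJ was not tested.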

How the data were processed

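RNA was measured in 3 libraries of 1 group, with replicate numbers from the titles. The authors deposited whole-number counts per Ensembl gene ID, with no normalization. The submitters' processing notes name featureCounts 1.5.2, STAR 2.5.3a and Trim Galore 0.4.0. Genome build, annotation release, strand setting and handling of shared reads: not given in the sources used. Symbols came from a name table, which matched 12660 of 30811 IDs.

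TMM factors (edgeR 4.0.16, R 4.3.3) scaled the counts to CPM. The 23432 genes with any count were set against 1 CPM by a two-sided quasi-likelihood F statistic from a fit with an intercept alone, with Benjamini-Hochberg adjustment over all of them and a threshold of 0.05. The test was checked on simulated counts with the same dispersion for every gene and libraries drawn independently. That check therefore does not cover the gap between replicate 3 and the others. Pairs of libraries were compared by their ratio, past 1.5-fold, among the genes that averaged 1 CPM or more, with no test and with 95% exact conditional binomial (Clopper-Pearson) intervals. Figures used matplotlib 3.10.9.

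The members and lists were chosen with earlier results of these data known. Named outside the members are, per list, the 2 matched genes of largest CPM, the lowest, and any below 1 CPM or without counts. NOTCH4, HES2, HES7 and MIB1, and those in the last section, were added after their values were seen. Alternatives were other scalings, filterByExpr, DESeq2 1.42.0, other levels, a 2-fold limit and leaving out each library. Levels per coding length, planned, were not run, as no coding lengths were at hand, and no sequences are shown. Some genes of the lists are not reported here.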

Additional observations from a re-analysis of the deposited data

How the results depend on the processing

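All 8 members were above 1 CPM under each alternative run: RLE size factors, total counts alone, filterByExpr, DESeq2, each library left out, and levels of 0.5 and 5 CPM. Of the 59 matched other pathway genes, 54 were above 1 CPM, beside 78.3% of tested genes with a symbol. The count of 54 was the same with each library left out, where fits on 2 libraries take the spread of a gene wholly from the trend. It was 56 above 0.5 CPM and 43 above 5 CPM. NOTCH2, JAG1 and RBPJ stayed past 1.5-fold under RLE factors and total counts. With a 2-fold limit NOTCH2 and JAG1 were left, 2 of 8 members, beside 5.07% of genes lower in replicate 3 than in replicate 1 and 5.01% lower than in replicate 2. GXYLT2 was below 1 CPM without replicate 1 or replicate 3 (edgeR adjusted p = 0.0399 and 0.0183). Without replicate 3 the mean of NOTCH2 was 40.5 CPM, against 31.6 CPM with it, that of JAG1 34.9 against 28.0 CPM and that of RBPJ 51.8 against 44.6 CPM. No paired analysis was possible because the libraries form only 1 group. Depth limits DLL4, at 3 to 6 counts, and the HES genes under 100 counts. Genes without a matched ID are not analysed here: HES1, HEY1, DLK1, APH1B, PSENEN, POGLUT1, LFNG, XXYLT1, MAML1, NEURL1, HES4, HEY2, HEYL, NRARP, ID1, SOX9, CCND1 and GATA3.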

Other observations

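Some further pathway genes, singled out after their values were seen, differed by over 1.5-fold between replicate 3 and both other libraries. DTX4, a Deltex gene, stood at 4.32 CPM in replicate 3, against 9.52 and 10.9 CPM in replicates 1 and 2. GXYLT1, a xylosyltransferase gene that acts on Notch repeats, stood at 5.20 CPM against 11.5 and 11.3 CPM. CIR1, a corepressor gene that binds RBPJ, went the other way, at 74.4 CPM against 44.7 and 42.3 CPM, a ratio of 1.66 and 1.76. NCSTN, which encodes the gamma-secretase subunit nicastrin, differed less, at 87.8 CPM in replicate 3, against 98.3 and 95.7 CPM in replicates 1 and 2.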
